A study of Mus musculus with 6 samples.

Results

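Genes that mark dendritic cell subsets were followed through leukocytes from the joints of mice with antigen-induced arthritis (AIA). They made up 8 of the 20394 genes in the deposited count table and were Flt3, Clec9a, Xcr1, Siglech, Zbtb46, Batf3, Tcf4 and Id2. They were taken by symbol for their known roles, and all 8 were present in the table. Male C57BL/6 mice, 8 weeks old when bought, were immunized with 10 μg methylated bovine serum albumin (mBSA) in complete Freund's adjuvant and received 100 μg mBSA into the knee on day 21. From that day they received vehicle (PBS, 2 samples) or 300 μg of the peptide PEPITEM (4 samples) intraperitoneally. CD45-positive cells were sorted from digested joint tissue on day 3 after the knee injection, and the 3′ ends of their transcripts were sequenced cell by cell. The labels name no transgene or deletion, and all 6 samples came from arthritic joints, so healthy synovium was not represented.

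Dendritic cells take up antigen and present it to T cells. Conventional dendritic cells divide into cDC1, which present antigen to CD8 T cells, and cDC2, which mainly present to CD4 T cells, whereas plasmacytoid dendritic cells (pDC) are known for type I interferon. Their development depends on FLT3 signaling, on BATF3 and ID2 for cDC1, and on the E protein TCF4 for pDC, which ID2 and its relatives oppose.

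Clec9a, Xcr1 and Siglech are surface receptor genes used to tell cDC1 from pDC, and the regions around their start sites are shown for that reason. Each run holds 250 bases before and 50 bases after the RefSeq start site of the gene (GRCm38.p6), read 5′ to 3′ on the strand of the gene. Capitals mark E boxes (CANNTG), the motif that E proteins such as TCF4 bind. Clec9a lies on the plus strand (chr6:129408612-129408911), Xcr1 on the minus strand (chr9:123861980-123862279) and Siglech on the plus strand (chr7:55767934-55768233).
Clec9a: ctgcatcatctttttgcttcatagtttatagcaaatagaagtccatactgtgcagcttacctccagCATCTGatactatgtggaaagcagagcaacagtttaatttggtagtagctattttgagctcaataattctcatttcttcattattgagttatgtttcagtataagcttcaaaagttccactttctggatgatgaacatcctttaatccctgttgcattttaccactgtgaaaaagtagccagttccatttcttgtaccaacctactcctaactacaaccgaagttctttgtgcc
Xcr1: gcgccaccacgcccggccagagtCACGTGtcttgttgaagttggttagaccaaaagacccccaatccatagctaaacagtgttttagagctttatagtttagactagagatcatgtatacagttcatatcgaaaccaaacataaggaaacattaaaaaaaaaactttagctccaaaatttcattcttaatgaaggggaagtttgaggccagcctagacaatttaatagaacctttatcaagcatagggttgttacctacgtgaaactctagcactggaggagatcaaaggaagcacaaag
Siglech: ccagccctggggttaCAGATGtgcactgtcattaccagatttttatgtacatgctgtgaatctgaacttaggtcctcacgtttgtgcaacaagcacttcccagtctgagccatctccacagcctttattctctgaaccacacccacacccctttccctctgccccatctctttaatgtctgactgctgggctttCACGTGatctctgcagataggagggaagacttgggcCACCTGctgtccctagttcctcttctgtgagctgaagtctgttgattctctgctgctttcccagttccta
The Siglech window held 3 E boxes and the Clec9a and Xcr1 windows 1 each. Of all 32851 RefSeq windows of this length, 72.3% held at least 1, and the share with 3 was not computed. Among other members, the Zbtb46 window held 6 E boxes, those of Flt3 and Batf3 2 each and that of Id2 1. The windows of Zbtb46, Batf3 and Id2 lay inside the annotated genes and not at their 5′ ends. That of Zbtb46 (chr2:181424339-181424638, minus strand) lay the farthest inside, as the gene ends at 181459426 on that side. The AP-1 motif TGANTCA, to which BATF proteins bind with JUN partners, was searched on both strands. It was in none of the Clec9a, Xcr1 and Siglech windows, against 7.81% of all windows, and had 1 match in that of Zbtb46. A motif match is a description of letters, and no binding was measured here.

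The table held 32953 cells in 6 barcode libraries of 47273569 to 123367661 unique molecular identifiers (UMIs, tags that mark single RNA molecules). The barcodes carried a library number from 1 to 6, and no source used here tied a number to a sample. Vehicle and PEPITEM were therefore not compared, no test was run, and each level is given pooled over all cells, with the lowest, median and highest library. A level is the UMIs of a gene per 1000000 UMIs of the cell class (CPM), with an exact Poisson 95% interval, and shares of cells carry exact binomial 95% intervals. Both intervals cover counting error only. Levels were compared between classes for 1 gene and not between genes. Summed levels of a marker list are likewise to be read between groups of cells and not between lists. Of all barcode sequences, 138 occurred in 2 libraries, at 3 to 21 per pair of libraries.

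Cells were grouped by clustering without the 8 genes and named from other markers, so a class carries the ending "-like". Dendritic cell-like cells made up 1638 cells, or 4.97% of all cells, and fell into 4 of 25 classes. Other classes included 613 pro-B and pre-B-like and 565 granulocyte precursor-like cells. From which tissue of the digested joints the cells of each class came was not tested. The 122 cDC1-like cells (7 to 30 per library) had all 8 fixed cDC1 markers in at least 25% of cells, including Naaa, Wdfy4 and Ifi205. The 929 cDC2-like cells (130 to 178 per library) had 7 of 8 cDC2 markers at that level, with Tnip3 (719 CPM) and Cd209a (540 CPM) the highest. Tnip3, Cd209a, Mgl2, Clec10a and Ffar2 were higher there than in the other dendritic cell-like classes. Klrd1 was higher in pDC-like cells (240 against 223 CPM) and H2-DMb2 in migratory DC-like cells (260 against 102 CPM). Cd209d stood at 121 CPM in both cDC2-like and pDC-like cells. The 103 migratory DC-like cells (8 to 31 per library) had 7 of 8 markers of migratory dendritic cells, such as Ccr7 and Fscn1. The 484 pDC-like cells (22 to 159 per library) had all 8 pDC markers, including Ccr9, Cox6a2 and Ly6d. Ptprc, which encodes CD45, had UMIs in 96.1% to 99.6% of the cells of each of the 4 classes. Markers of other cell types were also present, most of all those of neutrophils in cDC2-like cells, with a summed level of 13044 CPM (4736 to 23468 in the libraries) and 1 of 8 detected in at least 25% of cells. They lay in 1 sub-cluster of 194 cDC2-like cells led by Ccl17, Mgl2 and Cd209a, where all 8 were detected at 44883 CPM and 97.9% of cells had S100a8. Its median depth of 28028 UMIs exceeded the 17410 UMIs of the other 735 cDC2-like cells. A gate on single cells by the share of markers detected placed 401 of the 929 cDC2-like cells as cDC2. It placed 37 as pDC, 31 as proliferating, 29 as cDC1 and 12 as migratory DC. Another 141 were gated as classical monocyte and 88 as neutrophil, 85 of these last in that sub-cluster, and 181 were left ungated. Levels in cDC2-like cells were therefore also computed without this sub-cluster, a choice made after seeing the data. Cells that the gate placed in other classes but that lay outside this sub-cluster were kept. Without it the cDC2-like levels were 123 CPM for Flt3, 25.3 for Clec9a, 67.1 for Siglech, 94.2 for Zbtb46, 31.8 for Batf3, 501 for Tcf4 and 152 CPM for Id2, and 1.46 CPM for Xcr1. Of 6 classical monocyte markers, 4 were detected in at least 25% of cDC2-like cells, with a summed level of 1255 CPM (1012 to 2110 in the libraries), and 1 of 6 was in pDC-like cells at 1135 CPM (757 to 2707). Of 6 plasma cell markers, 2 were detected in at least 25% of pDC-like cells, with a summed level of 842 CPM (381 to 1725), and 1 of 6 was in migratory DC-like cells at 911 CPM (7.31 to 5719). Their part in the levels below was not tested. Because the members took no part in clustering or naming, their levels by class are a description that the class names did not fix directly, but genes of the same cells are not independent of them.

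Each of the 8 genes had its highest pooled level in a dendritic cell-like class when the 24 classes of at least 100 cells were ordered. Among all 17572 genes with at least 30 UMIs, 15.2% were highest in 1 of these 4 classes. Siglech and Tcf4 were highest in pDC-like cells, Clec9a and Xcr1 in cDC1-like cells, and Flt3, Zbtb46, Batf3 and Id2 in migratory DC-like cells. A stricter rule asked for a level 2-fold or more over that of any other class. In cDC1-like cells 2 of 8 members passed (Clec9a and Xcr1), where 0.563% of all genes did. In pDC-like cells 2 of 8 passed (Siglech and Tcf4), where 1.33% of all genes did. In migratory DC-like cells 1 of 8 passed (Zbtb46), against 1.64% of all genes. In cDC2-like cells 0 of 8 passed, against 0.0797% of all genes, which was 14 genes. With a minimum of 1 UMI instead of 30, these shares of all genes were 0.682% in cDC1-like, 1.47% in pDC-like, 1.78% in migratory DC-like and 0.196% in cDC2-like cells, and 14.9% of genes were highest in a dendritic cell-like class. The members were known subset genes from the start and were chosen with earlier results of these data known. These counts therefore describe them and do not test them.

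**Figure D1:**
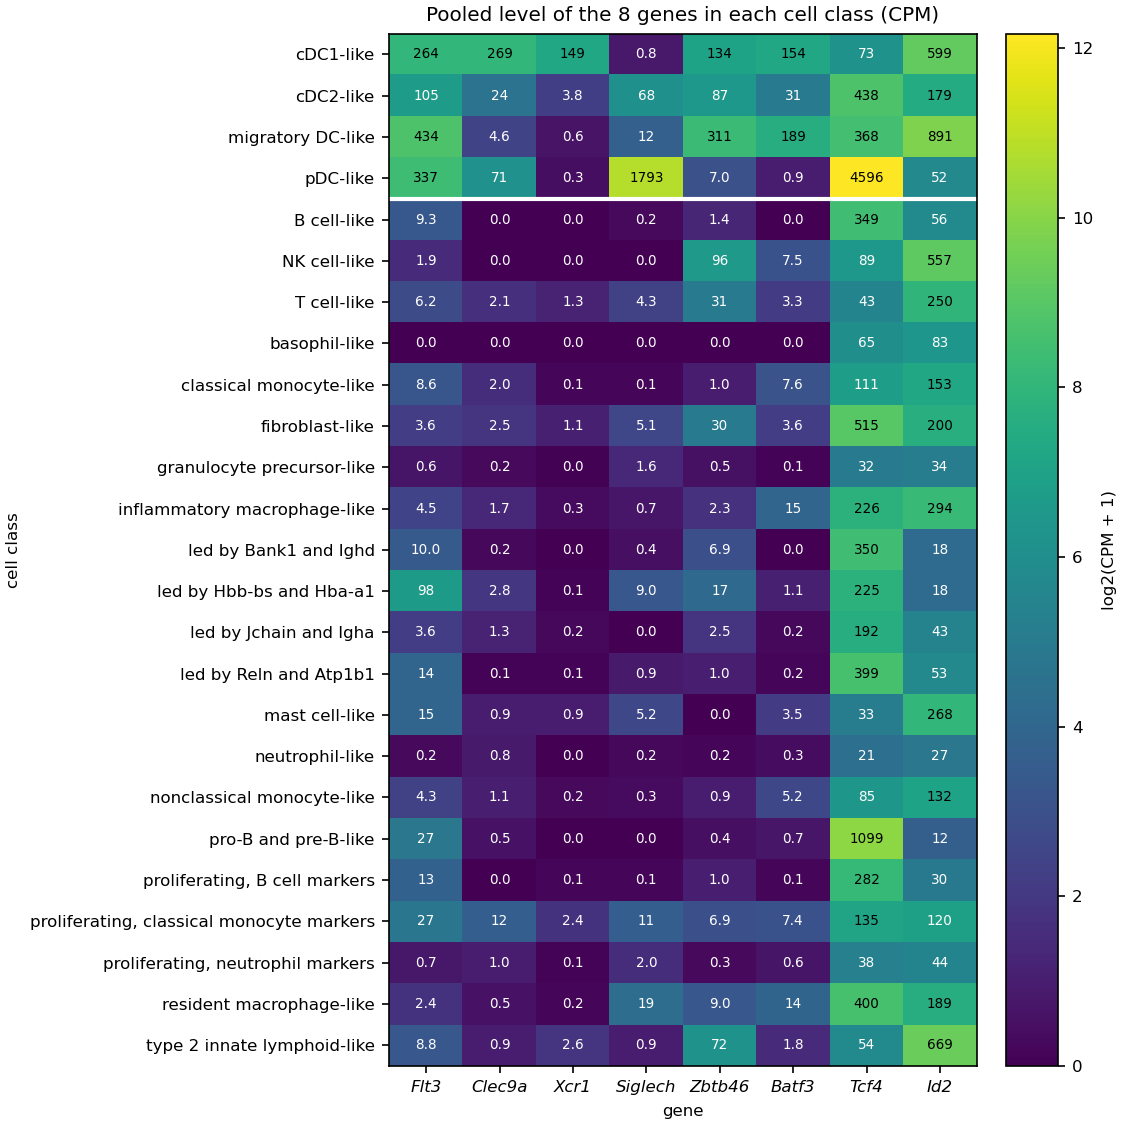
Heat map of the pooled level of the 8 genes (columns) in 25 cell classes (rows), with the color giving log2(CPM + 1) and the printed value the CPM. The 4 dendritic cell-like classes lie above the white line, where Siglech and Tcf4 peak in pDC-like cells at 1793 and 4596 CPM and Xcr1 is high in the cDC1-like row alone, at 149 CPM.

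Flt3 encodes the receptor for FLT3 ligand, the growth factor of dendritic cells and their progenitors (chromosome 5, 147330741 to 147400489, minus strand, GENCODE annotation of GRCm38). Flt3 was present in each dendritic cell-like class. It reached 434 CPM in migratory DC-like cells (95% interval 403 to 466, 747 UMIs), with 369, 430 and 542 CPM in the lowest, median and highest library. In pDC-like cells it stood at 337 CPM (libraries 254, 317 and 400.5 CPM), and in cDC1-like cells at 264 CPM (236, 255 and 417 CPM). These 3 classes overlapped in their library ranges, although migratory DC-like cells were above cDC1-like cells in 6 of 6 libraries. The highest cDC1-like value came from library 6, which held 7 such cells. In cDC2-like cells Flt3 stood at 105 CPM (77.2, 94.5 and 150 CPM), 2.51-fold below cDC1-like cells, and these ranges did not overlap.

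Outside the dendritic cells, Flt3 was high in a cluster led by the hemoglobin genes Hbb-bs and Hba-a1 with Meis1, a gene of blood cell precursors, among its leading genes. This cluster had all 6 stem and progenitor markers and 0 erythroid markers in at least 25% of cells. Its 1071 cells held 98.3 CPM of Flt3 (libraries 77.6, 107 and 181 CPM), which overlapped the range of cDC2-like cells. This cluster contributed 26.7% of all Flt3 UMIs, more than any dendritic cell-like class. All dendritic cell-like cells together held 50.6%. At an equal depth of 3000 UMIs per cell, 63.7% of migratory DC-like, 58.2% of pDC-like, 51.6% of cDC1-like, 24.5% of cDC2-like and 21.2% of the hemoglobin-led cells had a Flt3 UMI. Neutrophil-like cells, which should lack the gene, had one in 0.0872% of cells at that depth (0.198% without thinning). The ligand gene Flt3l was low throughout and highest in type 2 innate lymphoid-like (23.7 CPM) and T cell-like cells (22.2 CPM), against 4.65 to 6.52 CPM in the dendritic cell-like classes.

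Clec9a encodes a receptor by which cDC1 recognize dead cells (chromosome 6, 129408862 to 129424763, plus strand). Annotated Clec1b and Gm43914 overlap it on the same strand, and Clec1b had 545 UMIs of its own in the table. How reads of the shared stretch were counted was not tested. In cDC1-like cells Clec9a stood at 269 CPM (95% interval 250 to 290, 687 UMIs), with libraries at 191, 263 and 386 CPM. The highest library was 5 and the lowest 2. In pDC-like cells it stood at 71.3 CPM (47.6, 78.5 and 125 CPM), and in cDC2-like cells at 23.7 CPM (7.79, 26.6 and 32.6 CPM). The ranges of these 3 classes did not overlap at either step, at ratios of 3.78 and 3.01 between neighbors. In migratory DC-like cells 8 UMIs were counted, or 4.65 CPM, and 5 of them came from library 2.

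By cell, 94.3% of cDC1-like cells had a Clec9a UMI (95% interval 88.5% to 97.7%), against 41.9% of pDC-like cells (37.5% to 46.5%) and 20.5% of cDC2-like cells (17.9% to 23.2%). The median depth of these classes was 20940, 11364 and 18739 UMIs. At 3000 UMIs per cell the shares were 51.8%, 16.9% and 6.30%, and 0.296% in neutrophil-like cells, whose median depth was 6660 UMIs. The pDC-like share was thus above the neutrophil-like share at equal depth. It rested on low counts per cell, since 107 of the 203 positive pDC-like cells had 1 UMI of Clec9a and the highest had 11. Each of these 203 cells also had a Siglech UMI, but so did 479 of all 484 pDC-like cells, so this was nearly fixed in advance. The part of mixed droplets in the Clec9a counts was not tested.

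Xcr1 encodes the receptor for the chemokine XCL1 and marks cDC1 that meet XCL1-producing lymphocytes (chromosome 9, 123852315 to 123862029, minus strand). It was the member with the fewest UMIs, 597 in 167 cells, of which cDC1-like cells held 63.7%. Its level there was 149 CPM (95% interval 134 to 165), with libraries at 104, 130 and 194 CPM. The next class, cDC2-like cells, had 3.83 CPM (0 to 6.98 CPM), 38.9-fold less, and the ranges did not overlap. Of the 74 UMIs in cDC2-like cells, 54 lay in the sub-cluster with neutrophil markers, and without it the level was 1.46 CPM, 102-fold below cDC1-like cells. In pDC-like cells 2 UMIs and in migratory DC-like cells 1 UMI were counted. An Xcr1 UMI was present in 57.4% of cDC1-like cells (48.1% to 66.3%), and in 25.6% at 3000 UMIs per cell against 0.00389% of neutrophil-like cells. All 70 Xcr1-positive cDC1-like cells also had Clec9a, while 45 had Clec9a without Xcr1 and 7 had neither. Cells with Xcr1 were deeper, at a median of 22653 UMIs against 17970 in those without, and the part of depth in this split was not tested.

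The ligand gene Xcl1 was concentrated in lymphocytes of the same joints. T cell-like cells held 55.5% of its UMIs at 443 CPM (224 to 677 in the libraries), and NK cell-like cells held 42.3% at 1306 CPM (685 to 1610). In the 4 dendritic cell-like classes it stood at 0 to 0.392 CPM.

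Siglech encodes a surface receptor of mouse pDC, a member of the Siglec family (chromosome 7, 55768178 to 55778925, plus strand). It stood at 1793 CPM in pDC-like cells (95% interval 1758 to 1828, 10259 UMIs), with libraries between 1591 and 2001 CPM and a median of 1838 CPM. These cells held 78.0% of all Siglech UMIs, and 99.0% of them were positive (97.6% to 99.7%). The next level was 67.8 CPM in cDC2-like cells, 26.4-fold lower, and it varied widely between libraries, from 16.8 in library 4 to 163 CPM in library 6. Free RNA in the droplets can give stray UMIs, and the authors had corrected for it before deposit. How much of it remained in these levels was not tested. In migratory DC-like cells all 21 UMIs lay in 1 cell, and in cDC1-like cells 2 UMIs lay in 1 cell. Resident macrophage-like cells had 19.4 CPM (11.997, 16.1 and 27.9 CPM) in a different form. They held 33.9% of all Siglech-positive cells, mostly with few UMIs, as 256 of 401 had a single one. At 3000 UMIs per cell, 96.4% of pDC-like, 8.36% of cDC2-like, 5.28% of resident macrophage-like, 0.202% of cDC1-like and 0.0708% of neutrophil-like cells were positive.

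**Figure D2:**
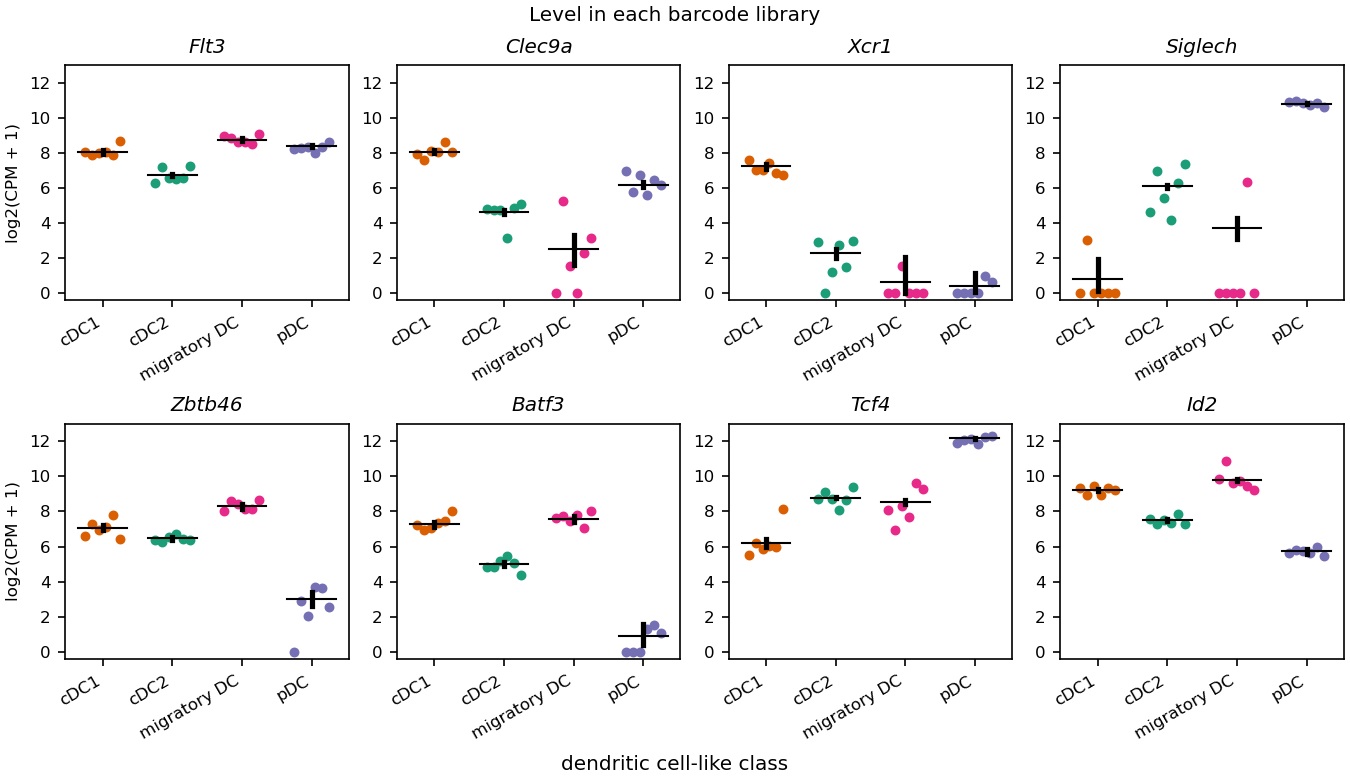
Level of each gene in the 4 dendritic cell-like classes, as log2(CPM + 1), with 1 point for each of the 6 barcode libraries from 1 (left) to 6 (right), a horizontal line for the pooled level and a thick bar for its 95% Poisson interval. The libraries of unknown treatment cluster tightly for Siglech and Tcf4 in pDC-like cells and spread widely for Siglech in cDC2-like cells, from 16.8 to 163 CPM.

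Zbtb46 encodes a zinc finger repressor of conventional dendritic cells and their committed precursors (chromosome 2, 181387762 to 181459426, minus strand). It was highest in migratory DC-like cells at 311 CPM (95% interval 286 to 339), with libraries at 263, 312 and 401 CPM, 2.32-fold above cDC1-like cells and without overlap. The cDC1-like level was 134 CPM (85.9, 131 and 222 CPM) and the cDC2-like level 87.4 CPM (75.9, 84.1 and 103 CPM). In pDC-like cells it was 6.99 CPM (0, 5.71 and 11.9 CPM), below each library of the other 3 classes. The cDC2-like level was 12.5-fold above that of pDC-like cells.

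For this gene, NK cell-like cells ranked after migratory DC-like and cDC1-like cells and ahead of cDC2-like cells. NK cell-like cells had 95.5 CPM of Zbtb46 (25.3, 88.3 and 139 CPM) and type 2 innate lymphoid-like cells 72.0 CPM (15.7, 72.7 and 110 CPM). Both ranges overlapped those of cDC1-like and cDC2-like cells. At 3000 UMIs per cell, 19.5% of NK cell-like and 19.8% of cDC2-like cells had a UMI, against 1.42% of pDC-like and 0.0524% of neutrophil-like cells. The T, NK and innate lymphoid-like classes together held 17.9% of all Zbtb46 UMIs, and all dendritic cell-like cells held 52.5%.

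Batf3 encodes the AP-1 family factor on which cDC1 development depends (chromosome 1, 191097847 to 191108945, plus strand). Migratory DC-like cells had 189 CPM (133, 202 and 259 CPM) and cDC1-like cells 154 CPM (123, 154 and 258 CPM), with overlapping ranges. In cDC2-like cells the level was 31.4 CPM (20.2, 29.8 and 42.2 CPM), 4.91-fold below cDC1-like cells and without overlap. The pDC-like cells had 5 UMIs, or 0.874 CPM, and 0.190% of them were positive at 3000 UMIs per cell against 0.0834% of neutrophil-like cells. Within cDC1-like cells, 85.2% had both Batf3 and Clec9a, where 90.2% had Batf3 and 94.3% had Clec9a. In migratory DC-like cells 6 of 82 Batf3-positive cells had Clec9a, and these were all the Clec9a-positive cells of the class. Both values thus largely follow the share of cells with each gene. Low levels in abundant cells made up much of the total. Inflammatory macrophage-like cells had 14.7 CPM (6.89, 14.99 and 27.1 CPM) and yet held 35.9% of all Batf3 UMIs.

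Tcf4 encodes the E protein that maintains pDC identity and also acts in B cell development. It reached 4596 CPM in pDC-like cells (95% interval 4541 to 4652, 26302 UMIs), with libraries at 3647, 4406 and 5104 CPM, and each of the 484 cells was positive. The next class was pro-B and pre-B-like cells at 1099 CPM (970, 1015 and 1355 CPM), 4.18-fold lower and without overlap. Fibroblast-like (515 CPM), cDC2-like (438 CPM) and resident macrophage-like cells (400.2 CPM) followed with overlapping ranges. Migratory DC-like cells had 368 CPM and ranged from 124 to 792 CPM between libraries. In cDC1-like cells the level was 72.9 CPM (45.3, 62.4 and 282 CPM), 63.0-fold below pDC-like cells. The value of 282 CPM came from the 7 cDC1-like cells of library 6, and the other 5 libraries lay at or below 72.2 CPM. With it the cDC1-like range overlapped that of cDC2-like cells (272 to 674 CPM), although cDC2-like cells were higher in 6 of 6 libraries.

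Id2 encodes an inhibitor that binds E proteins and keeps them off DNA, and it is needed for cDC1, NK cells and innate lymphoid cells (chromosome 12, 25093799 to 25097140, minus strand). Migratory DC-like cells had 891 CPM (605, 828 and 1872 CPM), where library 2, with 8 such cells, was far above the rest. Type 2 innate lymphoid-like cells had 669 CPM (432, 631 and 1021 CPM), cDC1-like cells 599 CPM (488, 616 and 696 CPM) and NK cell-like cells 557 CPM (476, 560 and 698 CPM). These 4 classes overlapped. In cDC2-like cells Id2 stood at 179 CPM (152, 172 and 234 CPM) and in pDC-like cells at 51.6 CPM (43.7, 51.4 and 61.9 CPM). Both steps from cDC1-like to cDC2-like to pDC-like cells were free of overlap, at ratios of 3.34 and 3.48. Across all cells Id2 was mostly a macrophage transcript by amount, as inflammatory macrophage-like cells held 42.6% of its UMIs and all dendritic cell-like cells 10.1%.

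The pooled levels of Tcf4 and Id2 thus ran in opposite orders over cDC1-like, cDC2-like and pDC-like cells. The ratio of Tcf4 to Id2 UMIs, which is read here only between classes, was 89.2 in pDC-like cells (74.3, 79.3 and 117 in the lowest, median and highest library). It was 2.44 in cDC2-like cells (1.69, 2.24 and 4.38), 0.413 in migratory DC-like cells (0.0664, 0.346 and 1.16) and 0.122 in cDC1-like cells (0.0706, 0.112 and 0.474). The cDC2-like value pools sub-clusters of unlike ratio, given below. The ranges of cDC1-like and cDC2-like cells did not overlap, nor did those of cDC2-like and pDC-like cells. Pro-B and pre-B-like cells had a ratio of 91.5, close to that of pDC-like cells, and NK cell-like (0.160) and type 2 innate lymphoid-like cells (0.0814) were near cDC1-like cells. By cell, 76.9% of pDC-like cells had Tcf4 without Id2 and 0 had Id2 without Tcf4. Of cDC1-like cells, 46.7% had Id2 without Tcf4 and 39.3% had both.

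**Figure D3:**
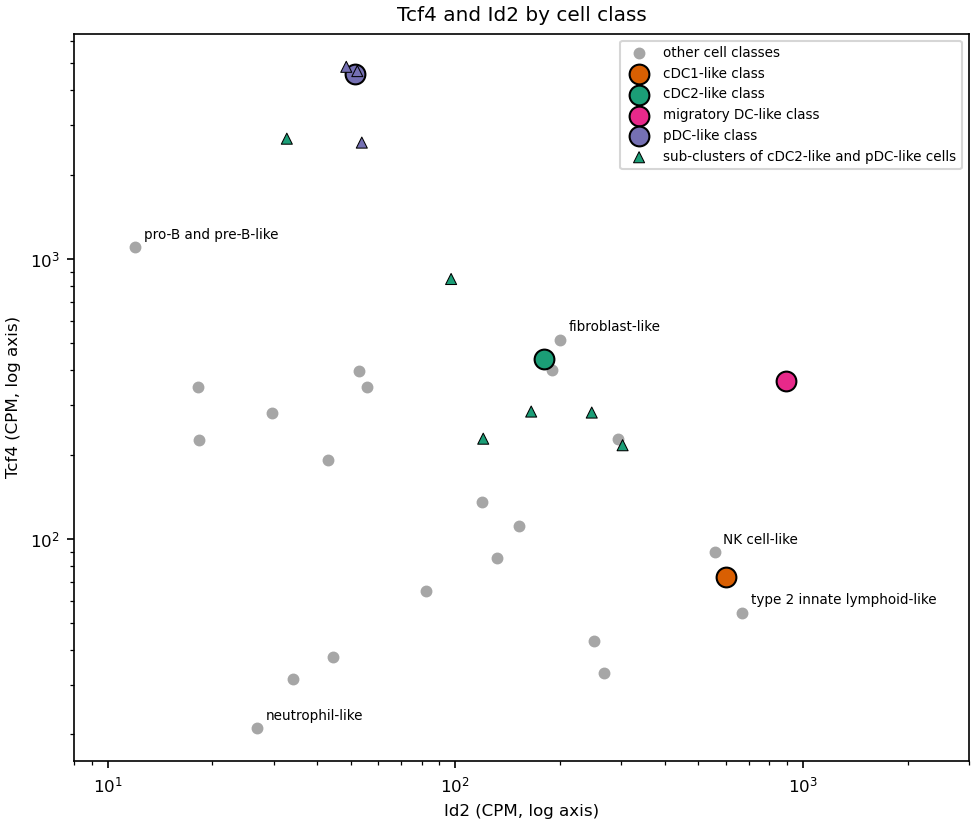
Tcf4 against Id2 in CPM, both on log axes, with 1 large circle for each dendritic cell-like class, gray points for the other classes and triangles for sub-clusters of cDC2-like and pDC-like cells. The pDC-like class lies at upper left (4596 CPM of Tcf4, 51.6 CPM of Id2), the cDC1-like class at lower right (72.9 and 599 CPM), and 2 triangles of cDC2-like cells lie toward the pDC-like class.

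The cDC2-like class was not uniform. Of its 6 sub-clusters, 2 had a Tcf4 level above that of the class as a whole, and these were looked at after their values had been seen. One, with 41 cells, was led by Cyp7b1, Cd7 and Hrh1, and the other, with 184 cells, by Cd209a, Cd7 and Gria3. Tcf4 chose them, so its level (2689 and 848 CPM) and its ratio to Id2 are no finding. They held 55.2% of the Tcf4 UMIs and 10.1% of the Id2 UMIs of the class. Their Tcf4 to Id2 ratios were 82.1 and 8.72, against 0.713 to 1.89 in the other cDC2-like sub-clusters, so the class ratio of 2.44 rests largely on them. Other members can vary with Tcf4 in the same cells, so their levels here are a description and no separate evidence. These 225 cells had 221 CPM of Siglech (91.5, 197 and 325 CPM), 8.12-fold above the 704 remaining cDC2-like cells (27.2 CPM, with libraries at 0.647, 22.9 and 88.8 CPM). The remaining cells include the sub-cluster with neutrophil markers, which held 389 of their 416 Siglech UMIs. Against the 510 cells left without it (2.79 CPM, with libraries at 0, 1.15 and 14.1 CPM), Siglech was 79.3-fold higher. With all remaining cells, Flt3 was 3.26-fold higher (233 against 71.6 CPM) and Clec9a 4.92-fold higher (64.0 against 13.03 CPM). Id2 was lower (86.5 against 204 CPM), as was Zbtb46 (43.3 against 99.1 CPM). The lower Zbtb46 lay in the larger sub-cluster alone, at 30.8 CPM in its 184 cells and 106 CPM in the 41 cells. Batf3 also differed between both, with 0 UMIs in the 41 cells and 28.2 CPM in the 184 cells. For Siglech, Flt3, Clec9a, Id2 and Zbtb46 alike, the library ranges of the 225 cells and of the remaining cells did not overlap, with or without the sub-cluster with neutrophil markers. The ranges overlapped for Batf3 (23.5 against 33.5 CPM) and Xcr1 (2.47 against 4.19 CPM).

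These 225 cells had 5 of 8 cDC2 and 5 of 8 pDC markers in at least 25% of cells, and the larger of both sub-clusters had 2 cDC2 markers among its 30 leading genes. In the first clustering of all cells, 24.4% of them lay in the cluster named from pDC markers, against 3.125% of the other cDC2-like cells. Summed markers stood at 944 CPM for cDC2, 807 CPM for pDC and 2528 CPM for classical monocytes, against 2820, 127 and 918 CPM in the other cDC2-like cells. In the larger sub-cluster alone (184 cells) they stood at 753 CPM for cDC2, 884 CPM for pDC and 2704 CPM for classical monocytes. The gate on single cells placed 94 of its cells as classical monocyte and 15 as cDC2, so its cDC2-like name is uncertain. The median depth of the 225 cells was 16296 UMIs, below the 19697 UMIs of the other cells. Their share of the cDC2-like cells differed between libraries, from 14.1% in library 4 to 48.5% in library 6, the same libraries in which Siglech of the whole class was lowest and highest. A Siglech UMI was present in 40.4% of them. Counts of 10 or more Siglech UMIs occurred in 52 cDC2-like cells, which held 1066 of the 1310 UMIs of the class. The part of mixed droplets in these cells was not tested here beyond the removal of doublets by the authors.

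**Figure D4:**
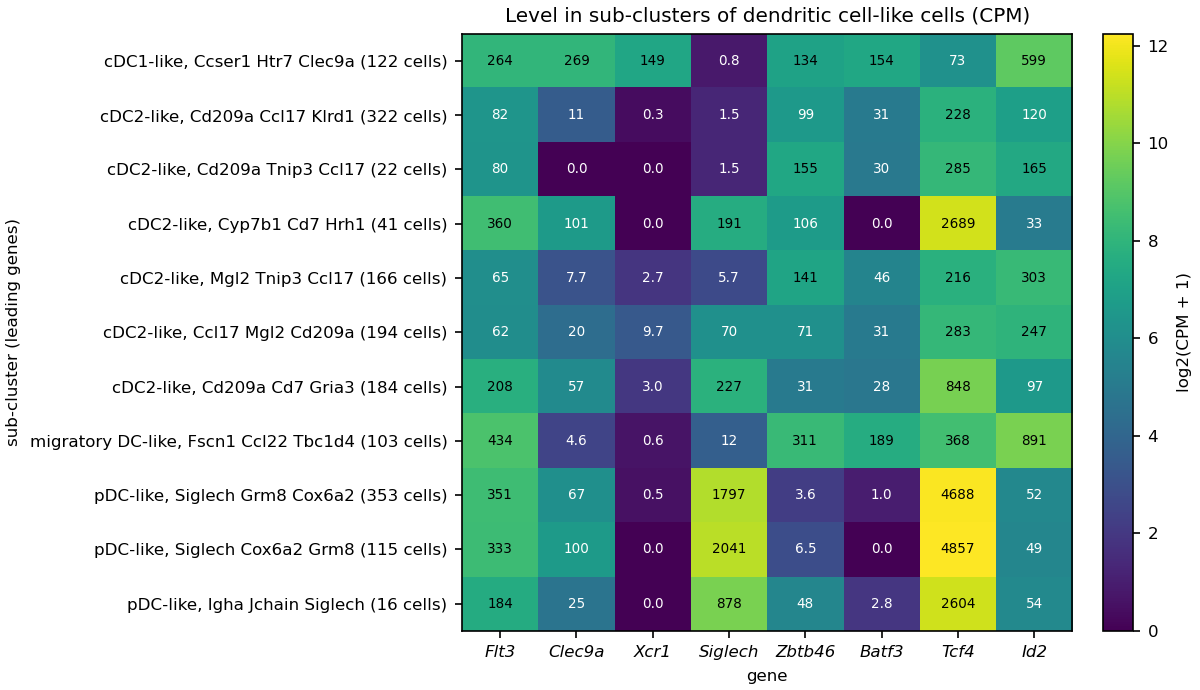
Heat map of the level of the 8 genes (columns) in the 11 sub-clusters of dendritic cell-like cells (rows, with class, first 3 leading genes and number of cells), with the color giving log2(CPM + 1) and the printed value the CPM. The sub-clusters led by Cyp7b1 and by Cd209a, Cd7 and Gria3 combine Tcf4 of 2689 and 848 CPM with Siglech of 191 and 227 CPM.

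The 4 remaining cDC2-like sub-clusters lay below the class level of Tcf4 by the choice described above, at 216 to 285 CPM. Their Id2 ranged from 120 CPM in the largest sub-cluster (322 cells, led by Cd209a, Ccl17 and Klrd1) to 303 CPM in that led by Mgl2 and Tnip3 (166 cells). A sub-cluster of 22 cells with all 6 proliferation markers had 79.7 CPM of Flt3 and 155 CPM of Zbtb46. The pDC-like class had 2 sub-clusters of 353 and 115 cells with near values (Siglech 1797 and 2041 CPM, Tcf4 4688 and 4857 CPM). Another one of 16 cells was led by Igha and Jchain with all 6 B cell markers in at least 25% of cells. It had 878 CPM of Siglech and 2604 CPM of Tcf4.

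A cluster of 876 proliferating cells with classical monocyte markers also held members at low levels. It had 11.6 CPM of Clec9a, 2.40 CPM of Xcr1, 11.3 CPM of Siglech and 26.7 CPM of Flt3. In it 13 cells had both Clec9a and Xcr1 and 15 had both Clec9a and Siglech, and 12 cells with 10 or more Siglech UMIs held 215 of 287 UMIs. Whether these were dividing dendritic cells was not tested, and they were in none of the 4 classes above. Outside all dendritic cell-like classes, 22 of 31315 cells (0.0703%, interval 0.0440% to 0.106%) had both Clec9a and Xcr1, against 70 of 122 cDC1-like cells.

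**Figure D5:**
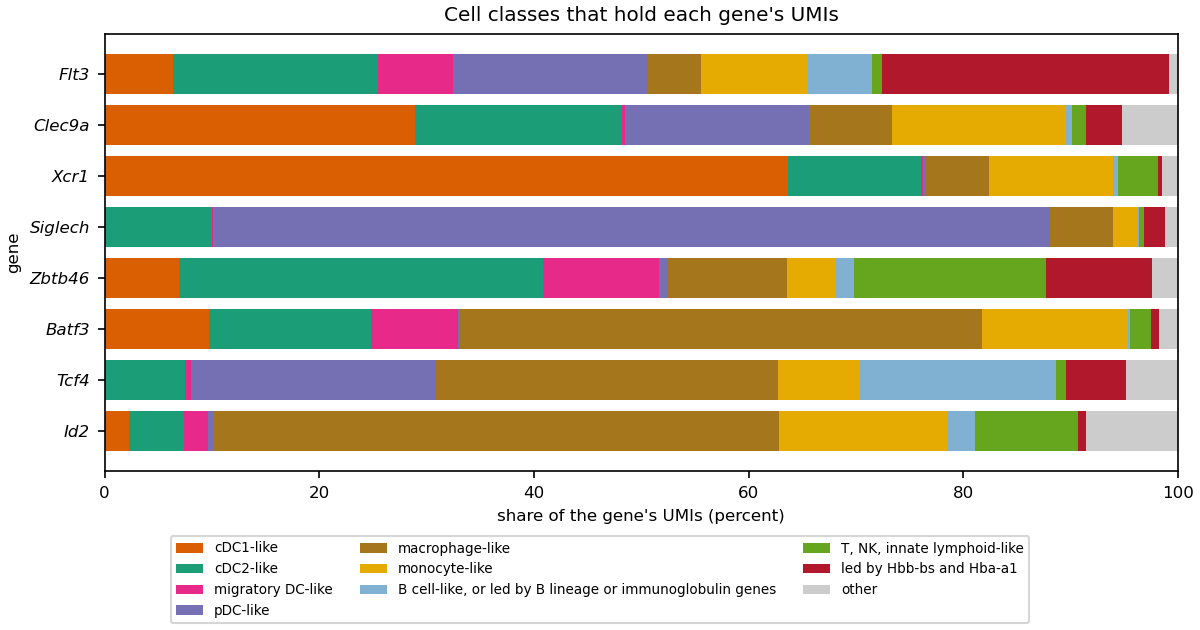
Share of each gene's UMIs (horizontal axis, percent) by the cell classes that hold them, with 1 bar per gene and 1 color per class or group of classes. Siglech and Xcr1 lie mostly in 1 dendritic cell-like class (78.0% in pDC-like and 63.7% in cDC1-like cells), whereas macrophage-like classes hold 48.7% of Batf3 and 52.8% of Id2 UMIs.

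Of 35 further genes of the same pathways, 12 were highest in a dendritic cell-like class, 7 of them in pDC-like cells. Among all 17572 genes the shares were 15.2% and 5.73%. Among 15 dendritic cell transcription factors, 7 were highest there. Irf8, a factor of cDC1 and pDC, stood at 1763 CPM in pDC-like, 776 in migratory DC-like, 760 in cDC1-like and 194 CPM in cDC2-like cells. NK cell-like cells had 702 CPM of Irf8. Runx2, which acts in pDC, was at 1473 CPM in pDC-like cells against 32.2 CPM in cDC1-like cells, and Bcl11a at 647 against 39.6 CPM. Relb, a factor of NF-κB signaling, reached 866 CPM in migratory DC-like cells against 68.9 to 139 CPM in the other 3 classes. Zeb2 was low in cDC1-like cells (40.0 CPM) and high in cDC2-like (1203 CPM) and pDC-like cells (1041 CPM). Classical monocyte-like cells (1687 CPM) and the cluster led by Reln and Atp1b1 (2230 CPM) exceeded the cDC2-like and pDC-like levels. Irf4, a factor of cDC2, was highest of the 4 classes in cDC2-like cells at 98.0 CPM but reached 415 CPM in the cluster led by Reln and Atp1b1.

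Among 4 E and Id protein genes, Tcf12 was highest in pDC-like cells at 1378 CPM, against 116 to 139 CPM in the other 3 classes. Id3 had 124 CPM in pDC-like and 11.4 CPM in cDC1-like cells, the reverse order of Id2. Batf reached 83.9 CPM in pDC-like and 80.6 CPM in T cell-like cells, and Batf2 was highest in inflammatory macrophage-like cells at 11.6 CPM, so neither had the Batf3 order. The growth factor receptor genes Kit, Csf1r, Csf2ra and Csf2rb were each highest outside the dendritic cells. Csf1r had 117 CPM in cDC2-like cells and 4.31 to 11.6 CPM in the other 3 classes. Of 8 other surface genes, Itgax, Ly75 and Bst2 were highest in cDC2-like (89.1 CPM), migratory DC-like (550 CPM) and pDC-like cells (2880 CPM). Sirpa separated cDC2-like (176 CPM) from cDC1-like cells (4.31 CPM) and was also at 195 CPM in pDC-like cells.

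Genes with the most similar pattern were sought among 13455 genes with at least 300 UMIs over 123 units, each at least 20 cells of 1 class in 1 library. Libraries with 7, 15 or 17 cDC1-like cells, and those with 8 to 17 migratory DC-like cells, gave no unit of that class. Few units therefore stood for the classes in which Flt3, Clec9a, Xcr1, Zbtb46, Batf3 and Id2 were highest. Units of 1 library share its depth and preparation, and units of 1 class share its cell type, so Pearson's r of log2(CPM + 1) is given as a description. The closest genes were Sept3 (r = 0.88) for Xcr1, Mycl (0.88) for Clec9a and Cd300c (0.89) for Siglech. They were Blnk (0.81) for Tcf4, Atox1 (0.85) for Batf3, Pkib (0.77) for Flt3 and Pfkp (0.76) for Id2. Sept3 stood at 171 CPM in cDC1-like and 15.7 CPM in cDC2-like cells. Mycl had 42.3 CPM in pDC-like and 25.1 CPM in cDC1-like cells. Cd300c had 314 CPM in pDC-like cells and at most 18.3 CPM in the other 3 classes. The next closest genes, in order, were Kif5a and Cd300c for Clec9a, 2310031A07Rik and Ffar4 for Xcr1, and Paqr5 and Lefty1 for Siglech. They were Slc22a23 and Grasp for Flt3, Shtn1 and Htr7 for Batf3, Zdhhc14 and Rftn1 for Tcf4, and Bhlhe40 and Ahnak for Id2. Ptpn3 (0.77) and Klri1 (0.76) were among the genes most like Zbtb46. Between members, r was highest for Clec9a with Xcr1 (0.68) and lowest for Tcf4 with Id2 (-0.28).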

How the data were processed

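CD45-positive synovial cells of 6 samples were sequenced with a Chromium 3′ kit. The authors aligned reads to mm10 with Cell Ranger 7, removed ambient RNA and doublets, filtered cells and deposited 1 table of whole UMI counts, not scaled for depth. Whether intronic reads were counted is not given in the sources used here. Entries written as 0 made up 1.10% to 5.89% of the entries of a member and were treated as 0 UMIs. In neutrophil-like cells their share ran from 0% for Xcr1 to 44.1% for Flt3 and 51.6% for Siglech. In pDC-like cells it was 0% for Flt3 and Siglech. The part of these entries in the low neutrophil-like shares was not tested. Here each cell was brought to a total of 10000, logged, and 2000 variable genes other than the 8 members gave 30 principal components, 15 neighbors and Leiden clusters at resolution 1.0 (scanpy 1.11.5, igraph 0.11.9, scikit-learn 1.9.0, Python 3.11.15, numpy 2.4.6, scipy 1.17.1, pandas 2.3.3). A cluster took the name of the class, among 24, with the most fixed markers among its 10 leading genes, with ties settled by its 30 leading genes and then by markers in at least 25% of its cells, of which 3 were needed. No doublet caller was run. Clusters without a name held 13.2% of cells. The 2 dendritic clusters were clustered again at resolution 0.5, a step chosen after seeing that cDC1-like and migratory DC-like cells lay in 1 cluster with cDC2-like cells. The members, gene lists and markers were chosen with earlier results of these data known. Genes named are the 8 members, the genes of the fixed pathway lists, the markers, and the 3 genes most like each member, of which not all are reported here. Leading genes of clusters were chosen after their values were seen. Shares at equal depth are expected shares when each cell is thinned to 3000 UMIs. They leave out 3 of 122 cDC1-like, 11 of 929 cDC2-like, 3 of 103 migratory DC-like, 1 of 484 pDC-like and 777 of 9578 neutrophil-like cells. The steps were tested on simulated data. No sequence of Tcf4 was used here.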

Additional observations from a re-analysis of the deposited data

How the results depend on the processing

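Each of the 8 members stayed highest in a dendritic cell-like class under each setting tried, including the omission of any 1 library. No paired analysis was possible because the barcode numbers are not tied to samples and no test was run. The level in the highest class left the 95% Poisson interval in 28 of 56 values under other class definitions or averages. With 1 library left out, 7 of 48 values did. Clec9a in cDC1-like cells (269 CPM) ranged from 254 to 279 CPM with 1 library left out, Xcr1 (149 CPM) from 137 to 156 CPM and Siglech in pDC-like cells (1793 CPM) from 1717 to 1890 CPM. At Leiden resolution 2.0, Clec9a fell to 88.7 and Xcr1 to 48.9 CPM, because the class then took in 329 inflammatory macrophage-like cells with 2.49 CPM of Clec9a and 0 Xcr1 UMIs, while Siglech was 1659 CPM. A gate on single cells gave 199 CPM for Clec9a, 115 CPM for Xcr1 and 1616 CPM for Siglech. The mean over cells gave 134 CPM for Xcr1 and 1828 CPM for Siglech, and the median over libraries 130 and 1838 CPM. Siglech was 1690 CPM with the members kept among the variable genes and 1712 CPM with the dendritic cells clustered again at resolution 1.0, an alternative added after seeing the data. Shares with a UMI moved with the thinning depth, as for Clec9a in cDC1-like cells (32.7% at 1500 and 73.0% at 6000 UMIs). With a minimum of 1 UMI, 40 genes instead of 14 exceeded any other class by 2-fold or more in cDC2-like cells. Without the cDC2-like sub-cluster with neutrophil markers, an alternative added after seeing the data, 19 genes did so at a minimum of 30 UMIs, 0 of them members. The 7 to 30 cDC1-like and 8 to 31 migratory DC-like cells per library limit the values of single libraries.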
